A study of Homo sapiens with 6 samples.

Results

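The 3′ UTR m5C sites of CLU, H3F3B, POLE and TTC13 were followed across a polysome gradient of wildtype HEK293T, a cell line derived from human embryonic kidney. RNA bisulfite sequencing had been carried out on poly(A) RNA from 6 fractions, with 1 library per fraction. In gradient order these held RNA without ribosomes (free), RNA bound by a small or by a large ribosomal subunit, monosomes with 1 ribosome, light polysomes with 2 to 5, and heavy polysomes with more than 5. Lysis and gradient buffers of all 6 contained cycloheximide, which holds ribosomes on mRNA, and the labels name no further treatment. The genes were selected on measured values: each has a 3′ UTR site that was listed at either end of the gradient, in the free library and in that of heavy polysomes. A site is listed where the authors called it methylated. These genes are 4 of 22 that meet this condition, and how the 4 were picked from the 22 is not part of the stated rule, so contrasts with the 18 others describe the choice as well as the genes. In all, the 4 genes had 5 of the 542 unique sites and 15 of the 1222 listings, and 4 of the 5 sites lay in a 3′ UTR. The fifth was a coding site of POLE, by the canonical transcript of that gene. The label HEK293T could not be checked against marker genes, because the lists hold called sites and not expression.

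m5C is a cytosine that carries a methyl group on carbon 5. In mRNA it is written mainly by NSUN2, at sites followed by a G-rich triplet (Type I), and by NSUN6, at sites followed by UCCA and often found in a hairpin loop (Type II). Bisulfite turns unmodified C into U, which is read as T, and leaves m5C to be read as C. The m5C level is therefore the share of C among the C and T reads at a position. The 3′ UTR follows the stop codon and is not read by elongating ribosomes, and it carries many of the elements that set the stability and translation of an mRNA. The genes are not of 1 pathway. CLU encodes clusterin, a secreted chaperone of misfolded proteins. H3F3B encodes the replication-independent histone H3.3. POLE encodes the catalytic subunit of DNA polymerase epsilon, which copies the leading strand. TTC13 encodes a protein with tetratricopeptide repeats.

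The reference sequence around the H3F3B, POLE and TTC13 sites is shown because it separates the site types. Each window is 21 nt of the spliced transcript on GRCh37, in DNA letters, with 10 nt on either side of the site. Capitals mark the methylated C and, where it is there, the TCCA that follows.
POLE, 3′ UTR: tgtccttcacCTCCAcacagg
POLE, coding: ttcttccagcCTCCAaggaag
TTC13, 3′ UTR: ctcacgtaacCTCCAtgtgtg
H3F3B, 3′ UTR: cacttgttctCatagtagtaa

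Both POLE sites and the TTC13 site had TCCA directly after the C and were Type II. Every site without TCCA there was counted as Type I, whether or not a G-rich triplet followed. H3F3B was Type I by this rule alone, with 0 G among the next 3 bases. The same held for 50 of 339 Type I sites that could be placed in a transcript (14.7%). CLU, whose window is not shown, was also Type II. Type II sites thus made up 3 of the 4 sites in 3′ UTRs, against 6 of the 18 others in 3′ UTRs that were listed at both ends of the gradient (33.3%), and 190 of all 542 sites (35.1%).

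The POLE site (ENSG00000177084) lay at position 133200596 of chromosome 12, minus strand, in exon 49 of 49, 687 nt after the stop codon and 73.5% of the way along a 3′ UTR of 935 nt. Its coding site lay at position 133238145, in exon 24. That placing follows the canonical transcript. Of 24 annotated transcripts, 4 had this position in coding sequence and 5 in a 3′ UTR. The TTC13 site (ENSG00000143643) lay at position 231042208 of chromosome 1, minus strand, in exon 23 of 23, at nt 443 of a 3′ UTR of 662 nt. The H3F3B site (ENSG00000132475, named H3-3B in the annotation) lay at position 73774026 of chromosome 17, minus strand, in exon 4 of 4, at nt 650 of a 3′ UTR of 2161 nt. The UTR sites of POLE and TTC13 lay in the distal part of short UTRs. Over 146 sites in 3′ UTRs the median UTR length was 1894 nt, and the median site stood 41.2% of the way along it.

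The CLU site (ENSG00000120885) lay at position 27455645 of chromosome 8, minus strand, also in the last exon (9 of 9). It stood 113 nt after the stop codon, 8.53% of the way along a 3′ UTR of 1324 nt. Each of the 4 sites was thus in the last exon of its transcript, but their places within the UTR ran from near the stop codon to the distal part. No other annotated gene overlapped any of the 5 positions.

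**Figure D1:**
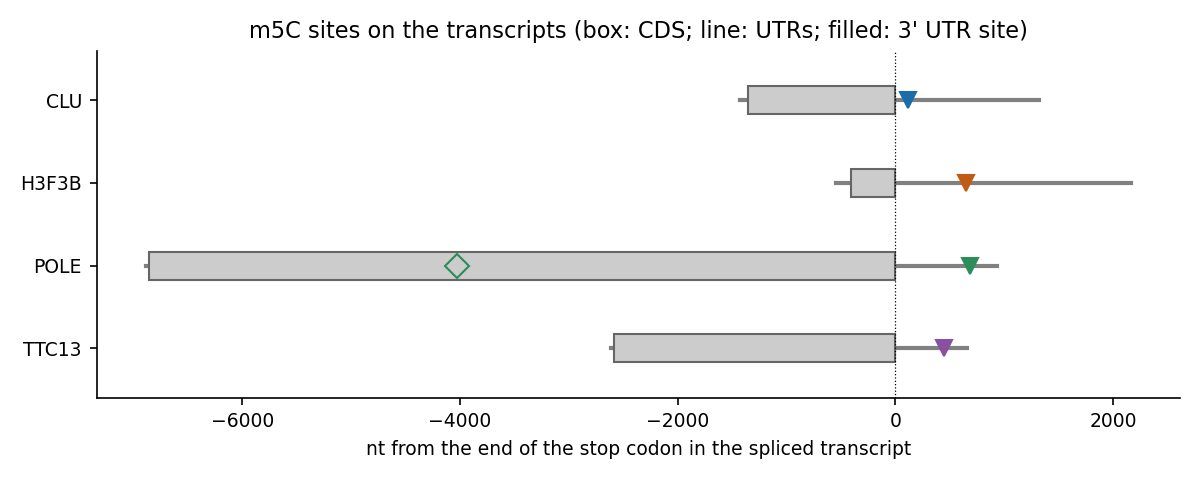
m5C sites of the 4 genes on their spliced canonical transcripts, with the x axis in nt from the end of the stop codon, boxes for coding sequence, lines for UTRs, filled triangles for 3′ UTR sites and an open diamond for the coding site of POLE. The 3′ UTR sites stand at 113 nt (CLU), 650 nt (H3F3B), 687 nt (POLE) and 443 nt (TTC13) after the stop codon.

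Predicted structure differed among the 4 sites. In a fold of 101 nt centred on the site, the C of the POLE 3′ UTR site was paired with a probability of 0.000293 and that of TTC13 with 0.0326, so both were placed in unpaired stretches. The C of CLU was paired with a probability of 0.821, although it is Type II. Of 189 Type II sites placed in a transcript, 134 (70.9%) had a probability under 0.5, so the CLU site was in the minority. The C of H3F3B was paired with a probability of 0.938, and 132 of 339 Type I sites (38.9%) had a probability under 0.5. These are predictions from sequence, and no structure was measured.

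H3F3B had the best covered site. Free RNA carried m5C at 21.3% of reads (95% Wilson interval 17.3% to 25.9%, 74 of 347 reads with C), against 19.3% in the small subunit library (13.1% to 27.5%, 22 of 114) and 17.8% in the large subunit library (9.29% to 31.3%, 8 of 45). Light polysomes gave 24.3% (19.2% to 30.1%, 57 of 235) and heavy polysomes 22.7% (16.9% to 29.7%, 37 of 163). The site was not listed in the monosome library. All 5 intervals overlapped, so the order of the levels, lowest with the large subunit and highest in light polysomes, was not resolved. Summed over its libraries the level was 21.9% (19.3% to 24.7%, 904 reads).

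For CLU the level was 22.1% in the free library (14.3% to 32.5%, 17 of 77 reads), 30.0% in the small subunit library (16.7% to 47.9%, 9 of 30), 21.2% in light polysomes (10.7% to 37.8%, 7 of 33) and 28.8% in heavy polysomes (18.3% to 42.3%, 15 of 52). It was not listed in the large subunit and monosome libraries. The small subunit and heavy polysome libraries were thus the higher pair and the free and light polysome libraries the lower pair, within overlapping intervals. The level over 192 reads was 25% (19.4% to 31.6%), the highest of the 4 genes.

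TTC13 was measured at 18.0% in the free library (9.77% to 30.8%, 9 of 50 reads), 13.5% in the small subunit library (5.91% to 28.0%, 5 of 37) and 22.6% in heavy polysomes (11.4% to 39.8%, 7 of 31). It was listed in none of the large subunit, monosome and light polysome libraries. These levels rest on 5 to 9 C reads each, and their intervals overlapped. The level over 118 reads was 17.8% (11.9% to 25.7%).

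The 3′ UTR site of POLE was listed at the ends of the gradient alone, at 10.1% in the free library (5.73% to 17.2%, 11 of 109 reads) and 16.7% in heavy polysomes (8.32% to 30.6%, 7 of 42). It was absent from the lists of the small subunit, large subunit, monosome and light polysome libraries. Its level over 151 reads was 11.9% (7.67% to 18.1%), the lowest of the 4 sites. The coding site of POLE was listed in the heavy polysome library alone, also at 16.7% (7.87% to 31.9%, 6 of 36 reads). In heavy polysomes the POLE sites thus had the same level in similar numbers of reads.

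In order of the summed level, CLU and H3F3B (25% and 21.9%) and H3F3B and TTC13 (21.9% and 17.8%) had overlapping intervals, as did TTC13 and POLE (17.8% and 11.9%). The intervals of H3F3B (from 19.3%) and CLU (from 19.4%) did not overlap that of POLE (to 18.1%). This rested on the free library, which gave 109 of the 151 reads of POLE; without it POLE stood at 16.7% (8.32% to 30.6%), an interval that overlaps both. These sums take in different libraries for each gene and count reads only where a site was called.

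**Figure D2:**
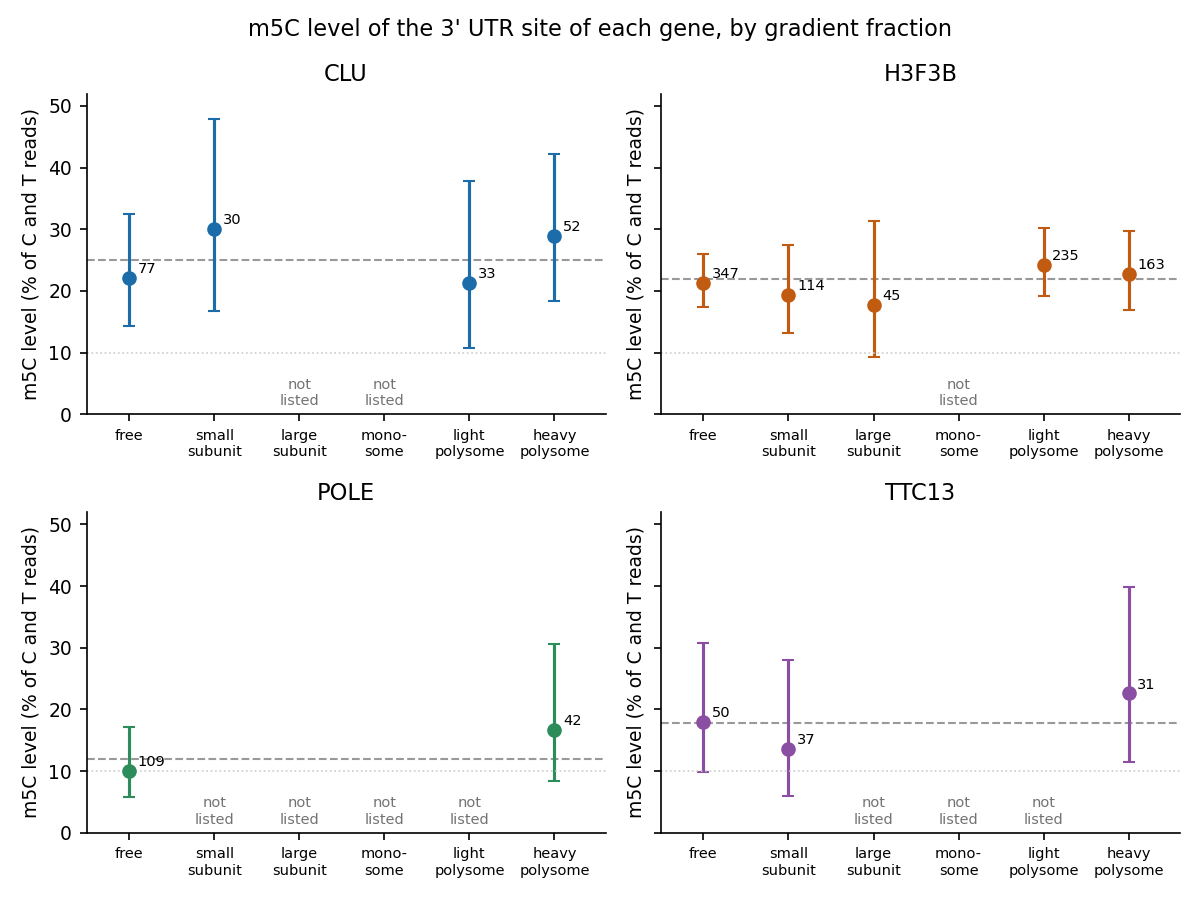
m5C level (y axis, % of C and T reads) of the 3′ UTR site of each gene in the 6 libraries of the gradient (x axis), with 95% Wilson intervals as bars, the coverage beside each point, the summed level as a dashed line and the lowest level of any listing (10%) as a dotted line. Within each gene the intervals overlap, and none of the 4 sites is listed in the monosome library.

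The libraries differed in which of the sites they listed. The free and heavy polysome libraries held all 4 sites by the rule of selection, the small subunit library held 3, the light polysome library 2, the large subunit library 1 (H3F3B) and the monosome library 0. Of the 18 other 3′ UTR sites listed at both ends, 15 (83.3%) were listed in the monosome library, 13 (72.2%) with the large subunit and 17 (94.4%) in light polysomes. The 4 genes made up 4 of the 7 sites in this set that were missing from the monosome list. Their median number of listings was 3.5 of 6, against 5 for the 18 others. A site is missing from a list where it had under 20 reads, a level under 10% or failed another filter, and the lists do not tell these apart. Over all genes the monosome library listed 177 sites, and the 6 libraries listed 172 to 233.

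The sites stood close to these filters in several libraries. In level, the 3′ UTR site of POLE was the nearest. With 1 C read fewer in the free library it would have stood at 9.17%, under the lowest listed level of 10%. In C reads, TTC13 was the lowest, since its 5 in the small subunit library equalled the fewest of any listing. With 1 C read fewer there, TTC13 would have stood at 10.8% from 37 reads, but with fewer C reads than any listing. The smallest coverage of a listing was 30 reads, at CLU in the small subunit library, where the filter asks for 20. Just outside the rule stood 3′ UTR sites listed at 1 end alone. The lowest were GID8 at position 61576476 of chromosome 20 with 10.0% in the free library (12 of 120 reads), MARVELD1 at position 99477416 of chromosome 10 with 10.3% in the free library (6 of 58), and BRF1 at position 105675970 of chromosome 14 with 10.7% in the heavy polysome library (9 of 84). Among the 146 sites in 3′ UTRs, 22 were listed at both ends, 22 in the free library and not the heavy polysome library, 56 in the heavy polysome library and not the free library, and 46 at neither end.

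Coverage, as deposited counts not scaled for depth, was lower in the heavy polysome than in the free library at all 4 sites. Free and heavy polysome counts were 347 and 163 reads at H3F3B, 109 and 42 at POLE, 77 and 52 at CLU, and 50 and 31 at TTC13. As ratios, heavy polysome over free, these were 0.470, 0.385, 0.675 and 0.620. At the 18 other 3′ UTR sites listed at both ends, 8 had fewer reads in the heavy polysome library, and the median ratio was 1.33 (0.607 to 26.5). From the lowest ratio up, POLE ranked 1, H3F3B 2, TTC13 4 and CLU 7 of the 22 sites. Since every site of a library shares its depth, this order does not depend on scaling, but whether any ratio is a rise or a fall does. Reads at a site depend both on how much of the mRNA is in a fraction and on how well the position was sequenced, and these cannot be told apart.

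**Figure D3:**
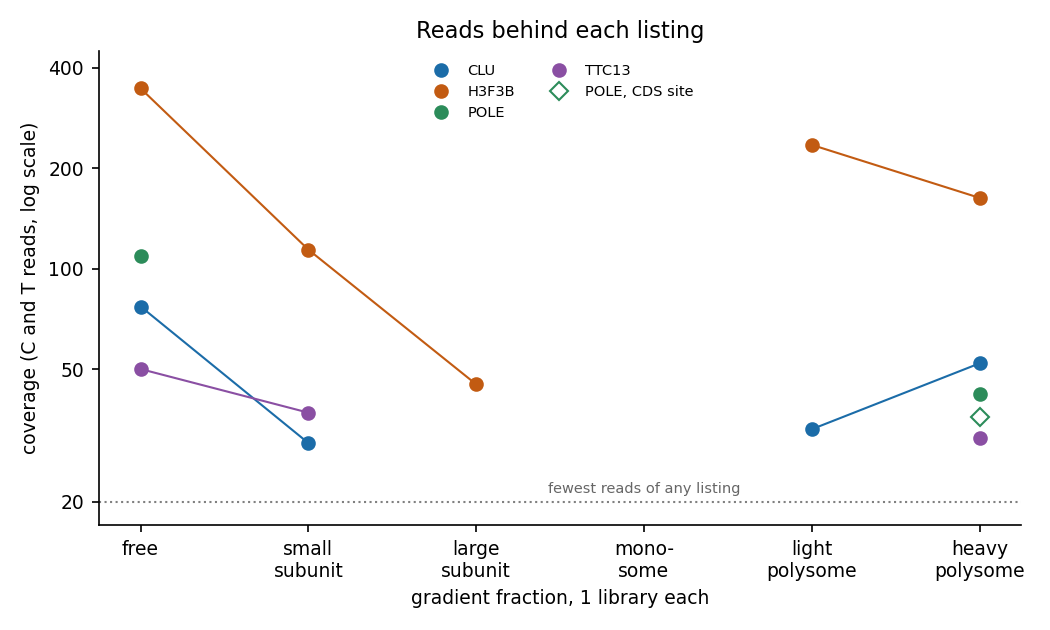
Coverage (y axis, C and T reads on a log scale) behind each listing of the 4 genes in the 6 libraries (x axis), with lines joining neighbouring libraries that both list a site and a dotted line at 20 reads, the fewest of any listing. H3F3B has the highest coverage in each library that lists it, and all 4 sites have fewer reads in the heavy polysome than in the free library.

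To ask whether m5C differs with ribosome load, levels at the ends of the gradient were set side by side. These libraries chose the genes, so the differences are a description and were not tested. The level was higher in the heavy polysome than in the free library at all 4 sites. Free minus heavy polysome was -6.77 percentage points for CLU (95% Newcombe interval -22.3 to 8.07), -6.57 for POLE (-21.2 to 4.37), -4.58 for TTC13 (-23.7 to 12.4) and -1.37 for H3F3B (-9.44 to 6.0). All 4 intervals held 0, so neither a difference nor its direction was resolved at this depth. The interval of H3F3B was the narrowest of the 4. Among the 22 sites in 3′ UTRs listed at both ends, CLU ranked 1, POLE 2, TTC13 4 and H3F3B 7 from the lowest difference up. Of the 18 other sites, 15 had the higher level in free RNA and 3 in heavy polysomes, with a median of 1.81 points, and 16 of the intervals held 0.

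The direction at CLU depended on which libraries were compared. Free against light polysome gave 0.866 points (-17.4 to 15.7), and small subunit against heavy polysome gave 1.15 (-17.8 to 21.9), both positive. With reads summed before the polysomes (free, small and large subunit) and in both polysome libraries, CLU was at 24.3% of 107 reads against 25.9% of 85, a difference of -1.58 points (-14.0 to 10.5). The sum for H3F3B was 20.6% of 506 against 23.6% of 398 reads, or -3.06 points (-8.57 to 2.34). For TTC13 it was 16.1% of 87 against 22.6% of 31, or -6.49 points (-24.8 to 7.95). All 3 intervals again held 0.

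**Figure D4:**
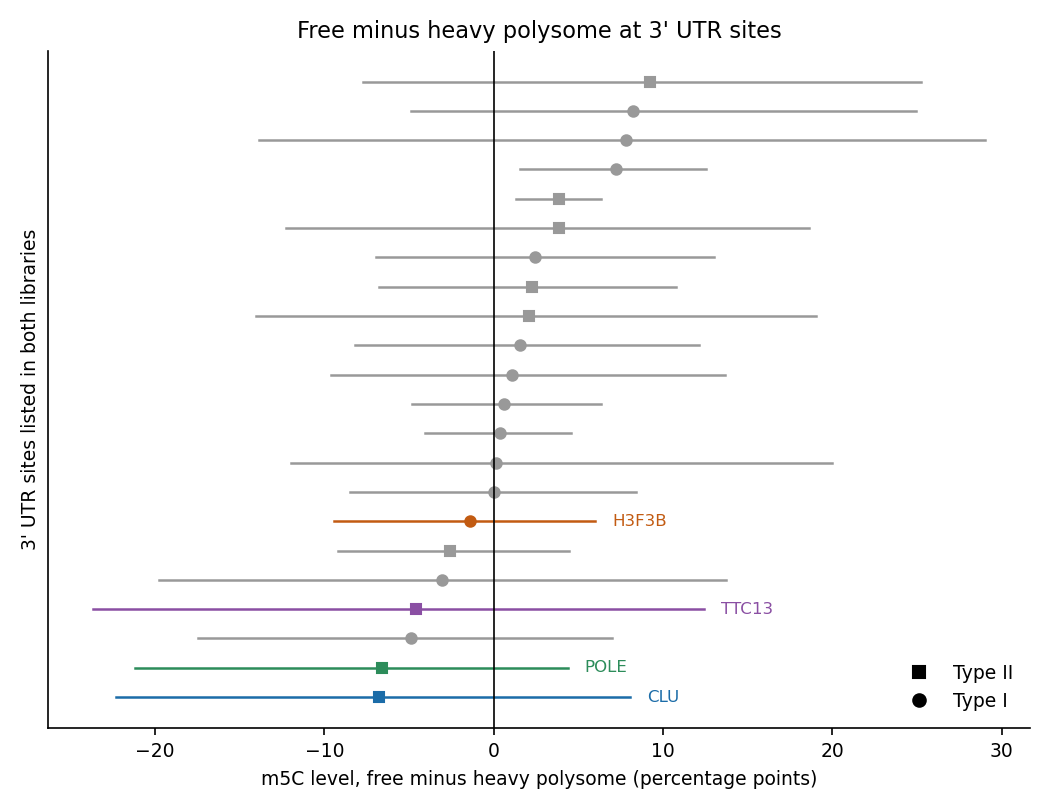
m5C level in the free minus the heavy polysome library (x axis, percentage points) at the 22 sites in 3′ UTRs listed in both, sorted by the difference, with 95% Newcombe intervals as lines, squares for Type II and circles for Type I. CLU, POLE, TTC13 and H3F3B (coloured) lie left of 0 with intervals that hold 0, and 15 of the 18 other sites (grey) lie right of 0.

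The stated rule used no level of the small subunit, large subunit, monosome or light polysome library, and these were tested. Whether such levels bore on the choice of 4 genes from the 22 is not known. C and T reads were compared for each site and pair of these 4 libraries with Fisher's exact test (two-sided). The test compares libraries and not conditions. A site was tested only where both libraries listed it, so a level that fell below the calling filter in either dropped out. Over all sites, 43 of 686 tests (6.27%) passed an adjusted p of 0.05. Of these tests, 4 concerned CLU or H3F3B, while TTC13 and POLE were listed in too few of the libraries. None of the 4 passed by Fisher's exact test or by a score test of proportions, and 0 had an unadjusted p under 0.05 by either. An unadjusted p under 0.05 was found in 93 of the 686 Fisher's exact tests (13.6%), so 0 of 4 does not set these genes apart. For H3F3B the small subunit minus the light polysome library was -4.96 points (interval of the difference -13.5 to 4.66, Fisher's exact test, p = 0.341, adjusted p = 0.859). The large subunit minus the light polysome library was -6.48 points (-16.8 to 7.98, exact p = 0.442, adjusted p = 0.938). Between the small and large subunit libraries it differed by 1.52 points (-13.4 to 13.3, exact p = 1). CLU was 8.79 points higher in the small subunit than in the light polysome library (-12.5 to 29.5, exact p = 0.564, adjusted p = 1). The lower coverage of the 2 libraries compared had a median of 45 reads in these 4 tests and 75 in all 686.

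The free and heavy polysome libraries were also set against each of the other libraries. As in the tests above, levels were truncated at the calling filter. Since both end libraries chose the genes, these differences are given as a description with no test. There were 12 such pairs, 6 for H3F3B, 4 for CLU and 2 for TTC13. The size of the difference ran from 0.866 to 9.07 points, with a median of 3.47, and all 12 intervals held 0. At TTC13 the heavy polysome library was 9.07 points above the small subunit library (-9.22 to 27.9), on 31 and 37 reads. At CLU the free library minus the small subunit library was -7.92 points (-27.4 to 9.03), and the heavy polysome library was 7.63 points above the light polysome library (-12.0 to 24.7). At H3F3B the widest gap was between heavy polysomes and the large subunit, at 4.92 points (-9.80 to 15.9). Over all 717 such pairs of sites and libraries the median size was 4.76 points. How many of the 717 intervals held 0 was not counted, so 12 of 12 does not set these genes apart. The lower coverage of each pair had a median of 41 reads in the 12 and 73 in the 717.

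The H3F3B value carries a limit of its own. Its 21-nt window has 1 further exact match in the genome, at position 31944044 of chromosome 12, minus strand, 75 nt from the histone gene H3-5, where 99 of 101 bases around the site are the same. After conversion of C to T, the 101-nt window matched its own place alone, so reads that cover the differing bases can be told apart. The part of reads from this copy was not tested. The 101-nt windows of the other 4 sites also matched once after conversion. The converted 21-nt windows had more matches at every site, from 4 (TTC13) to 40 (POLE, 3′ UTR).

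Sites were also sought in related genes. Of 52 replication factors, 4 had a listed site: POLE, CDT1, which licenses origins, ORC3, a subunit of the origin recognition complex, and TIPIN, of the fork protection complex. CDT1 also had a Type II site in its 3′ UTR, with 17.2% over 395 reads (13.8% to 21.2%). It was listed in every library of the gradient up to monosomes and in neither polysome library. TIPIN had a Type II coding site with 12.1% over 240 reads (8.55% to 16.8%), and ORC3 a Type I coding site with 10.5% of 105 reads in the small subunit library. Among 28 chaperones of the secretory pathway, CLU and SDF2L1 were listed, the latter at 11.3% of 53 reads in the monosome library. Matched by the start of the symbol, with no total to set it against, H3F3B was the one histone gene listed, and TTC3 the one other TTC gene, at 15.2% of 33 reads in the small subunit library. These counts have no background share beside them and are not a test, since a gene can be listed only where its mRNA was read deeply enough.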

How the data were processed

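Per the labels, 6 libraries of HEK293T poly(A) RNA were made, 1 per gradient fraction, and nothing says that cultures were replicated. The authors trimmed reads with cutadapt 1.13 and Trimmomatic 0.36, mapped them to the converted GRCh37 genome with HISAT2 and to the converted transcriptome with Bowtie2 2.2.9, and kept bases of quality 30 or more. Deposited coverage is the unscaled count of C and T reads, the deposited m5C level is the fraction with C, and the deposited p-value, from a binomial test that used gene-specific conversion rates, was not used here. The lists hold called sites alone. The authors' removal of reads with many unconverted C can lower a level, and whether counts precede it is not given in the sources used here.

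C reads were taken as level times coverage, whole to within 1e-06 at all 1222 listings. All 542 sites carried C on GRCh37. The listed gene was found in GENCODE 44 lifted to that build for 534 sites, with canonical transcripts preferred. Some of these sites lay outside every annotated transcript of their gene. Listed sites per library numbered 172 to 233, and reads at them 50416 to 764521.

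Fisher's exact tests ran over every site and the 6 pairs of inner libraries, with Benjamini-Hochberg adjustment over all of them, and were checked on simulated data. The 8 pairs with an end library are given as differences without their tests, since those libraries chose the genes. Intervals (Wilson, Newcombe, 95%) cover counting error of reads only, since each fraction had 1 library. Reads had no molecular identifiers, so copies of the same molecule could not be told apart and the intervals may be too narrow. Folds used ViennaRNA 2.7.2, with Python 3.11.15, scipy 1.17.1 and pandas 2.3.3. Alternatives were a coverage of 50, a score test, adjustment within pairs, protein-coding genes, other pairs or sums of libraries, other scalings and other fold windows. All sites of the 4 genes were named, with the listed members of 4 gene lists and 3 sites just outside the rule. Members and lists were chosen with earlier results of these data known.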

Additional observations from a re-analysis of the deposited data

How the results depend on the processing

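Of 25 alternatives for the level differences and numbers of calls, all kept their number within 1.5 times or stayed inside the interval of the main value. This was easy to meet, since the intervals were wide (-23.7 to 12.4 points at TTC13). A change of sign at CLU and calls of 0 that stayed 0 counted as kept. The 25 include calls between end and inner libraries, which are not reported here because the end libraries chose the genes. They also include a sum for POLE over the same libraries as its main value, which could not differ. The number of tests passed among the inner libraries was 36 to 44 (43 as reported), and 0 of them were of the 4 genes, although at 50 reads 1 of their 4 tests was left. Free minus heavy polysome was negative in 6 of 8 alternatives, and the exceptions were both at CLU (0.866 and 1.15 points). Each of the 8 takes in the free or the heavy polysome library, which chose the genes, and for POLE no other library could be used; the small subunit alternative was chosen after seeing the data. Monosome against heavy polysome gave no value, as no 3′ UTR site of these genes was listed in monosomes. Leaving out each library in turn gave summed levels of 23.6% to 27.0% for CLU, 21.1% to 22.3% for H3F3B, 10.1% to 16.7% for POLE and 16.1% to 19.8% for TTC13. Coverage in heavy polysomes relative to free was below 1 at all 4 sites when divided by the median or geometric mean coverage of 31 sites listed in all 6 libraries (0.212 to 0.718), and above 1 when divided by the summed coverage without the 5 most covered sites (1.32 to 2.31). Predicted pairing stayed on the same side of 0.5 in windows of 51 and 151 nt. No paired analysis was possible because each fraction had 1 library. The levels rest on 5 to 17 C reads each, other than those of H3F3B, and the intervals take no account of differences between cultures.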
